A study of Rattus norvegicus with 110 samples.

Results

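The livers described here came from 14 F2 male Sprague Dawley rats with no treated ancestor (cohort A, F0-control/F1-control), 7 given low-dose carbon tetrachloride (CCl4, group 12) and 7 given the olive oil vehicle (group 11). They were chosen by the group digits of the animal number, and are 14 of the 110 RNA samples of the series and 14 of its 83 liver samples. Sprague Dawley is an outbred stock. Low-dose males received 8% (v/v) CCl4 in olive oil and vehicle males 100% olive oil, both at 0.5 mL/kg by oral gavage 3 times per week for 39 days, and liver was taken about a day after the last dose. The animals were young adults. Males carry the replicate numbers 1, 2, 4, 5, 7, 9 and 10 in each group. For reference, cohort A also held 7 high-dose males (50% CCl4, group 13). The same low-dose and vehicle groups existed in cohort B (F0-control/F1-treated), cohort C (F0-treated/F1-control) and cohort D (F0-treated/F1-treated), where "treated" ancestors had received 50% CCl4. These were 41 further males, with 6 vehicle males in cohort C and 7 in every other group.

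CCl4 is turned into a reactive radical by cytochrome P450 enzymes, chiefly Cyp2e1, which sit mostly in the hepatocytes around the central vein. Those cells are damaged first. The innermost of them also hold glutamine synthetase, which captures ammonia that the upstream urea cycle has missed. Repeated injury draws in monocytes through chemokines such as Ccl2, engages stress and conjugation enzymes in surviving hepatocytes, and activates stellate cells to lay down collagen.

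Library totals in the 14 males lay between 35032899 and 49469175 estimated counts, and no libraries were identical. Levels below are normalized counts, which are estimated counts scaled to a common effective library size, and they are not corrected for gene length. Differences are log2 fold changes from edgeR's quasi-likelihood test across all genes tested, with Benjamini-Hochberg adjustment, with their standard error (SE). The SE was worked back from that test, as the absolute log2 fold change divided by the square root of the F statistic. A gene was called at an adjusted p under 0.1 with an absolute log2 fold change over 1. The files name genes by Ensembl identifier, and a symbol could be attached to 1488 of the genes tested (7.83%). These symbols came from the study's own list of genes related to treatment of the F0 males in these same livers, so the genes named below are neither a random nor an independent sample of the liver transcriptome. Tat, the 1 of 8 hepatocyte markers with an identifier, ranged from 12651 to 100617 normalized counts over the 14 livers. Nphs1, a kidney podocyte gene, stayed between 34.0 and 72.5.

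At the low dose 704 genes were called (3.70% of those tested), 668 of them higher (3.52%) and 36 lower (0.189%). By adjusted p alone 1193 genes passed (6.28%), 1057 higher (5.56%) and 136 lower (0.716%). Among the genes with a symbol, 13 were called, 11 higher and 2 lower, which is 0.874% of them and below the share over all genes. A further 35 genes with a symbol, 24 higher and 11 lower, passed the adjusted p alone. The median log2 fold change of the called genes was 1.70 for those that rose and -2.03 for those that fell, against 0.03 over all genes tested. Of the genes that rose, 245 exceeded 2 and 49 exceeded 4 on the log2 scale. In 110 of them no vehicle library held more than 3 counts, so their fitted fold changes have no firm base. Of the 668 genes, 288 (43.1%) had a vehicle mean under 10 normalized counts, against 25.9% of all genes tested, and 8 had a vehicle mean of 1000 or more.

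Glul encodes glutamine synthetase, the pericentral enzyme that fixes ammonia into glutamine, and was the most abundant of the named genes called. In vehicle livers its normalized count had a lowest value of 13213, a median of 14382 and a highest of 19391. In low-dose livers these were 5599, 5854 and 11180. Every low-dose liver thus lay below every vehicle liver, and 6 of the 7 sat within a narrow band from 5599 to 6657. The group means were 15518 ± 2406 (SD, n = 7) and 6760 ± 1992, a 2.30-fold fall (log2 fold change -1.20, SE 0.19, edgeR adjusted p = 4.87e-06). Within each of the 4 necropsy dates the difference of mean log2 values was between -1.62 and -1.004. The call was kept in all 30 alternative analyses. The alternative with no fold threshold reused the main fit, so no gene could lose its call there.

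The fall was not carried further by the high dose. High-dose livers of cohort A held 11384 ± 3200 normalized counts of Glul (n = 7), with values from 7370 to 16166, and this was above the low-dose group by 0.75 on the log2 scale (SE 0.19, edgeR adjusted p = 0.00154) while below vehicle by a log2 fold change of -0.45 (adjusted p = 0.0455). The high-dose group enters both of these comparisons, so these are given side by side. The same 2 steps were measured in other animals. Low dose against vehicle gave -0.89 (adjusted p = 0.000667) in cohort B, -1.05 (adjusted p = 0.000182) in cohort C and -1.15 (adjusted p = 9.84e-06) in cohort D. High against low dose gave 0.67 (adjusted p = 0.00332), 0.86 (adjusted p = 0.000328) and 0.69 (adjusted p = 0.00405) in the same order. In each of the 4 cohorts the low-dose mean was the lowest of the 3 dose means. The low-dose effect in cohort A differed from the mean of cohorts B to D by -0.17, with an approximate 95% interval from -0.59 to 0.26.

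**Figure D1:**
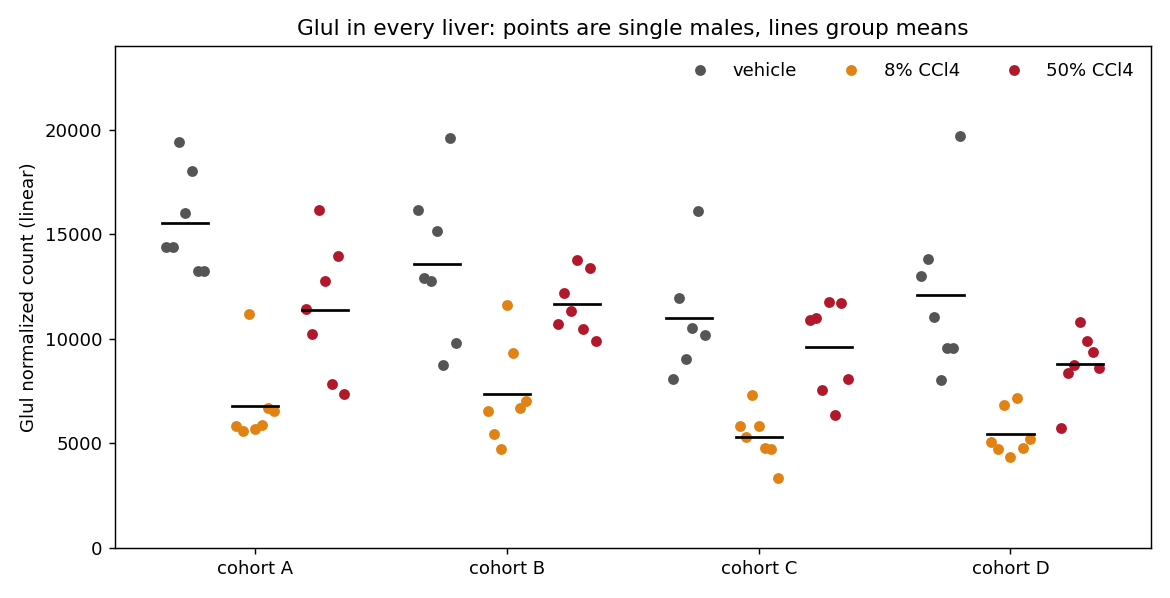
Normalized count of Glul (linear axis from 0) in all 83 livers, by cohort on the x axis and by dose in colour; each point is 1 male and each line a group mean. Cohort A low-dose livers centre on 6760 against 15518 in vehicle and 11384 at the high dose, and the middle group is the lowest in every cohort.

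The other pericentral genes with an identifier did not pass the test. Slc1a2, a glutamate transporter of the same inner cell layer, had a median of 281 in vehicle and 300 in low-dose livers (log2 fold change 0.01). Rhbg, an ammonium channel, stood at 0.12 and Rnf43, a Wnt target that restrains Wnt receptors, at 0.39. Cyp1a2, a P450 enzyme of the perivenous zone, had medians of 15766 and 16707 (log2 fold change 0.16), and was called lower in cohort B only (-1.17, adjusted p = 0.0554). So of 5 zonation genes with an identifier, out of 20 listed, 1 was called lower, Glul, and the median of the 5 was 0.12. Over all genes 0.189% were called lower, and 5 genes are too few to set against that share. In bulk tissue, fewer cells of a type and less RNA per cell cannot be told apart.

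Rgs16 was the second named gene to fall. It encodes a regulator that shortens G protein signals. Its vehicle values had a lowest of 34.1, a median of 603 and a highest of 1451, and its low-dose values were 34.0, 70.0 and 287. Vehicle livers thus spread over a wide range, and males 2 and 9 of that group lay among the low-dose livers, so the groups overlapped. The means of 673 ± 520 and 110 ± 92.4 (SD, n = 7) gave a log2 fold change of -2.60 (SE 0.71, edgeR adjusted p = 0.0167). It was also called lower in cohort D (-2.42, adjusted p = 0.041), and stood at -1.34 in cohort B and -0.48 in cohort C, neither past the test. In cohort A it did not pass without the males of necropsy date 1 (adjusted p = 0.136) or of date 2 (adjusted p = 0.129), while its log2 fold change stayed between -3.05 and -2.29 over all 30 alternatives.

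The 250 bases before each RefSeq start site are shown for Glul and Rgs16, because they are the named genes called lower, and for Akr7a3 and Cyp2c24, an aldehyde reductase and a P450 gene that were called higher. The sequences read 5′ to 3′ on the plus strand of GRCr8, at chr13:68519250-68519499 and chr13:68575816-68576065 for the 2 annotated starts of Glul, chr13:68437870-68438119 for Rgs16, chr5:156876471-156876720 for Akr7a3 and chr1:246286091-246286340 for Cyp2c24. Capitals mark CCAAT or TATAAA on either strand.
Glul start 1: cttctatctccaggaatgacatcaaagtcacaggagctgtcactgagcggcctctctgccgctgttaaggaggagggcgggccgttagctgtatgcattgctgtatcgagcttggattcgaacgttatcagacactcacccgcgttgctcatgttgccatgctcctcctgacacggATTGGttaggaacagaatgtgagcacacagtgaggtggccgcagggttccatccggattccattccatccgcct
Glul start 2: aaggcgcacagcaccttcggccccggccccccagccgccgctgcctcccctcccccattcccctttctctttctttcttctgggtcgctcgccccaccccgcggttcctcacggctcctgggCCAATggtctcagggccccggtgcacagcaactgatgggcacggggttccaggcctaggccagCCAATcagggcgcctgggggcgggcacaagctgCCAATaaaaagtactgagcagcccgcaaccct
Rgs16: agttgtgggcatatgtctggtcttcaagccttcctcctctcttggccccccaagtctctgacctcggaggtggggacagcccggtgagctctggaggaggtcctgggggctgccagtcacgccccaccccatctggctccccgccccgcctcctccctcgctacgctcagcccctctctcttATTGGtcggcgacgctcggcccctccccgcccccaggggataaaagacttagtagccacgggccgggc
Akr7a3: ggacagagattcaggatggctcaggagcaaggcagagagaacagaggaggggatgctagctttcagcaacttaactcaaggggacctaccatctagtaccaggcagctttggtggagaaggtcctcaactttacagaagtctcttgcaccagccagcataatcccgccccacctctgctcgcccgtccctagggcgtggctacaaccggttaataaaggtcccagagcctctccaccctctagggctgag
Cyp2c24: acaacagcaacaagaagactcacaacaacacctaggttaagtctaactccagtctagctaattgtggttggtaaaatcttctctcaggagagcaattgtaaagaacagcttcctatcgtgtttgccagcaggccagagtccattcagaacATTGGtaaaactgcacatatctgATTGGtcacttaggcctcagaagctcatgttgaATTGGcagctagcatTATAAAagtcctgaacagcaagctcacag

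CCAAT, the core letters bound by the NF-Y factor, was present once before the first Glul start and 3 times before the second, once before Rgs16 and 3 times before Cyp2c24, but not in the Akr7a3 window. It occurred in 34.0% of 33469 rat promoter windows of the same length. TATAAA occurred once, before Cyp2c24 (12.9% of all windows), and the antioxidant response letters TGACNNNGC in none of the 5 windows (10.1% of all). The counts are summed per gene, so they do not say which Glul start was in use, and the deposited counts rest on an earlier annotation than these coordinates.

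The named genes that rose included detoxifying enzymes. Gstm3l, a mu-class glutathione transferase that conjugates electrophiles, had a lowest, median and highest value of 58.9, 132 and 204 in vehicle livers and 201, 303 and 811 in low-dose livers. The groups touched at a single pair of animals, and males 4 and 7 of the low-dose group stood far above the rest at 753 and 811. The difference was 3.18-fold (log2 fold change 1.67, SE 0.33, edgeR adjusted p = 0.0004), and Gstm3l was called in cohorts B, C and D as well (1.52, 1.25 and 1.21). Without males 4 and 7 it was 1.04 and no longer passed (adjusted p = 0.146). As mu-class transferases are a family of close copies, the estimated counts may be shared among them.

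Akr7a3, an aldo-keto reductase that clears reactive aldehydes, had a lowest, median and highest value of 1204, 2327 and 5000 in vehicle livers and 2753, 5125 and 11250 in low-dose livers. The groups overlapped, and the difference was 2.11-fold (log2 fold change 1.08, SE 0.32, edgeR adjusted p = 0.0344). Cyp2c24, a P450 of the drug-metabolizing 2C family, ran from 17.03 to 330 in vehicle and from 56.9 to 875 in low-dose livers, with medians of 88.9 and 403. Its groups also overlapped (log2 fold change 1.80, SE 0.50, adjusted p = 0.02). Cyp2c24 was called in cohort C (2.28) and Akr7a3 in no other cohort (0.52 to 0.67). With litter as a block Cyp2c24 (adjusted p = 0.153) and the kinase gene Map3k6 (adjusted p = 0.123) did not pass, nor did Ncs1 and Tex36, which are described further on.

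In the list of 37 NRF2 and glutathione genes, 8 had an identifier, 2 were called higher and none lower, and the median log2 fold change was 0.40. Of 46 cytochrome P450 genes 4 had an identifier and Cyp2c24 alone was called. Over all genes tested 3.52% were called higher, and 2 of 8 or 1 of 4 are too few to set against that share. Gpx2, an epithelial glutathione peroxidase, was far higher in 1 low-dose male than in the rest. Its low-dose values were 4.72 to 32.7 in 6 livers and 288.5 in male 4, against 4.87 to 21.9 in vehicle livers, and it did not pass (log2 fold change 1.97, adjusted p = 0.119, but passed in 6 of 30 alternatives). Cyp1a1, an enzyme induced through the Ah receptor, also did not pass (1.76, adjusted p = 0.472), with low-dose values from 9.69 to 83.9.

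Amino acid metabolism was represented by Psat1, which makes phosphoserine for serine synthesis. Its lowest, median and highest values were 49.8, 85.7 and 116 in vehicle and 114, 169.5 and 243 in low-dose livers. The groups overlapped only at their edges, and the difference was 2.04-fold (log2 fold change 1.03, SE 0.30, edgeR adjusted p = 0.0299). It was called in cohort C (1.41). In the list of 31 urea, amino acid and glucose genes, 5 had an identifier, of which Psat1 rose, Glul fell and 3 did not pass, too few to set against the 3.52% higher and 0.189% lower over all genes.

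Ccl2 encodes the chemokine that draws monocytes from blood. Its vehicle values were 9.82, 19.6 and 25.4 (lowest, median, highest) and its low-dose values 29.05, 38.2 and 273. The groups did not overlap, but 1 liver, male 7, was far above the others, whose highest was 68.6. The difference was 4.52-fold (log2 fold change 2.18, SE 0.69, edgeR adjusted p = 0.0527), and without male 7 it was 1.37 (adjusted p = 0.416). Cohort D gave 1.92 and a call (adjusted p = 0.0919), and cohorts B and C 1.70 and 1.62 without one.

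Cxcl12, a chemokine made by sinusoidal and stromal cells that holds CXCR4-bearing cells in place, passed the adjusted p without reaching the fold threshold. Vehicle values were 11959, 14400 and 17356 and low-dose values 5749, 8476 and 11538, again without overlap (log2 fold change -0.86, SE 0.23, edgeR adjusted p = 0.0154). In cohorts B to D it stood between -0.50 and -0.28 and did not pass. Of 38 chemokine and cytokine genes 7 had an identifier, and the other 5 did not pass, again too few to set against the shares over all genes. Il33, an alarm cytokine of sinusoidal and stromal cells, had medians of 3653 and 2175 (-0.67, adjusted p = 0.109) and passed in 11 of 30 alternatives, with adjusted p down to 0.0248. Kdr, the 1 of 6 endothelial markers with an identifier, ranged from 2748 to 4288 in vehicle and from 2567 to 3580 in low-dose livers, and the part of cell composition in these differences was not tested.

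The remaining named genes that rose have varied roles. Ehd4, a membrane trafficking ATPase, had values of 222, 290 and 351 (lowest, median, highest) in vehicle and 436, 514 and 834 in low-dose livers. Its groups did not overlap and its SE was the smallest among the genes called higher with a symbol (log2 fold change 1.01, SE 0.19, edgeR adjusted p = 0.000113). It passed the adjusted p in cohorts B, C and D at 0.95, 0.69 and 0.84, below the fold threshold. In cohort A it lay so near that threshold that the call was lost in 12 of 30 alternatives, DESeq2 (log2 fold change 0.998) among them, while the adjusted p was at most 0.03 in all 30. Unc5b, a netrin receptor, went from a median of 277 to 523 with overlap (1.03, SE 0.26, adjusted p = 0.00771), and was called in cohort C (1.16, adjusted p = 0.00525). Map3k6, a stress-activated kinase, went from a median of 47.45 to 102 with overlap (1.24, SE 0.39, adjusted p = 0.045). It was called in all 3 other cohorts, at 1.39, 1.61 and 1.18. In cohort A its call was lost without vehicle male 10, the lowest of its group, and without low-dose male 4 or 7 alone. Within necropsy date 1 its difference of mean log2 values was 0.086.

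P2rx5, an ATP-gated channel, was uneven among low-dose males. Vehicle livers held 1.23 to 14.4 normalized counts and low-dose livers 3.17 to 242, with males 2 and 7 at 242 and 136 and no other above 32.7 (log2 fold change 3.31, SE 0.96, edgeR adjusted p = 0.0257). It stayed called without male 4 or male 7 alone. The call was lost without male 2 alone, the highest of the group, and without the males of necropsy date 1, 2 or 3. P2rx5 was also called in cohort C (2.68, adjusted p = 0.0829). Tex36, a testis-associated gene, went from a median of 71.2 to 108 (1.05, adjusted p = 0.071). Ncs1, a neuronal calcium sensor, was near the counting limit, with at most 6.165 normalized counts in vehicle and 10.6 in low-dose livers (1.86, adjusted p = 0.0977). With the replicate number as a block, Ncs1 (adjusted p = 0.254) and Tex36 (adjusted p = 0.132) did not pass, and Unc5b passed with a log2 fold change of 0.96, just under the fold threshold.

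**Figure D2:**
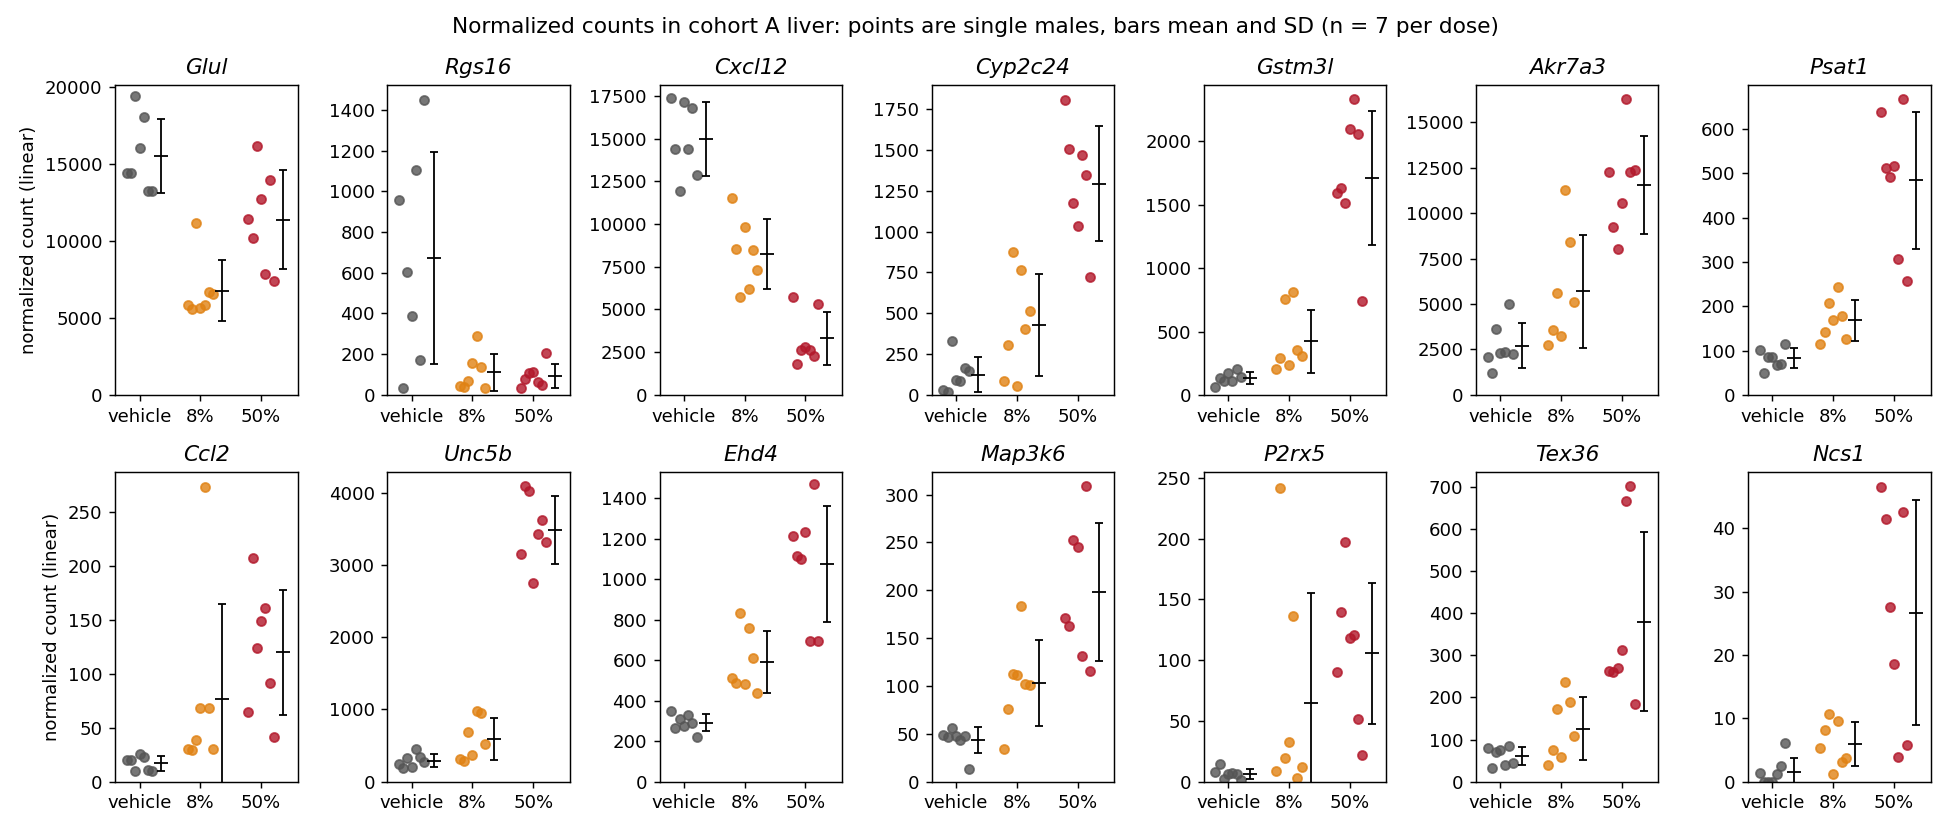
Normalized counts (linear axes from 0) of the 13 called genes with a symbol and of Cxcl12 in cohort A, for vehicle, 8% CCl4 and 50% CCl4; points are single males and bars the mean and SD of 7, cut off at 0 where the SD exceeds the mean. Glul is lowest at 8% (mean 6760), and single low-dose males stand apart for Ccl2 (273) and P2rx5 (242).

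Between the high and the low dose, 7 of the 13 named genes were called higher at the high dose and none lower. Over all genes 7.36% were called higher and 4.49% lower in that comparison, which shares the low-dose males with the one above. Unc5b had the steepest second step, from 590 ± 292 to 3483 ± 476 normalized counts (log2 fold change 2.56), after a first step from 290 ± 90.6. Of the 668 genes that rose at the low dose, 300 were called higher again in the second step, 9 lower and 359 neither, and of the 36 that fell 6 were called higher and 7 lower. Cnn3, a calponin of contractile cells, passed the adjusted p at the low dose (0.46, adjusted p = 0.054) and stood at 0.02 in the second step.

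The 35 genes that passed the adjusted p alone were named after their values were seen, and many were lost with fewer animals. Without low-dose male 4 alone 11 of them passed the adjusted p, without male 7 alone 17 and without both 1. Without a single vehicle male 23 to 32 passed, without the males of a single necropsy date 10 to 19, and with litter as a block 19. Ctsd and Lgmn, lysosomal proteases abundant in macrophages, rose together. Ctsd went from a lowest, median and highest value of 8186, 9250 and 10522 to 11049, 12629 and 21583, with no overlap (log2 fold change 0.52, SE 0.11, edgeR adjusted p = 0.00142). Lgmn went from a median of 2701 to 3740 (0.60, adjusted p = 0.00327). Low-dose male 4 was the highest for both genes. Both passed in cohorts B, C and D, at 0.58, 0.34 and 0.42 for Ctsd and 0.88, 0.52 and 0.77 for Lgmn. The other 6 of 8 macrophage genes with an identifier did not pass. As a count, 2 of 8 is too few to set against the 5.56% of all genes that rose by adjusted p alone. Adgre1, Cd163, Cd5l and C1qb, 4 of 9 macrophage markers, had log2 fold changes from -0.30 to 0.10 (median -0.16). Their summed level ranged from 9288 to 15093 in vehicle and from 7674 to 14159 in low-dose livers.

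Among the others that rose were Abcc5, an efflux pump for nucleotides (0.87, adjusted p = 0.00283), Srd5a3, which makes dolichol for glycosylation (0.57, adjusted p = 0.00753), and Scd2, a fatty acid desaturase (0.57, adjusted p = 0.0528). All 3 passed in cohorts B, C and D too. Gnai1, an inhibitory G protein subunit (0.99, adjusted p = 0.00131), and Bcl3, an NF-kappaB cofactor (0.94, adjusted p = 0.0218), passed in none of them, and Bcl3 stood at 0.52, 0.17 and -0.09 there. Selplg, the selectin ligand of leukocytes, rose by 0.75 (adjusted p = 0.022). The cell cycle regulators Cdc25a and Wee1 rose by 0.32 (adjusted p = 0.0966) and 0.79 (adjusted p = 0.0531), but did not pass in 22 and 10 of 30 alternatives, with adjusted p up to 0.353 and 0.634. The falls included Slc19a2, a thiamine transporter, which went from a median of 4387 to 2914 with no overlap (-0.67, adjusted p = 0.0294), and Med4, a Mediator subunit (-0.48, adjusted p = 0.0289).

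Of the 25 gene lists, which hold 679 genes, 125 genes had an identifier and were tested. Of these 6 were called and 12 passed the adjusted p, 10 higher and 2 lower. These are 4.8% and 9.6% of the list genes tested, against 3.70% and 6.28% of all genes, and nothing particular to the lists is read from them. Their median log2 fold change was 0.06. Collagens and neutrophil genes had no member with an identifier and mitosis only Sgo2 (0.68, adjusted p = 0.164), so fibrosis and proliferation cannot be read from these lists. None of 3 other matrix proteins, 8 matrix turnover genes, 7 TGF-beta genes, 6 p53 genes, 7 stress genes, 8 clock genes, 4 bile duct genes, 4 endothelial genes or 20 ribosome biogenesis genes passed, nor any of 5 secreted proteins, 3 bile acid genes, 2 lymphocyte genes or the 1 fatty acid oxidation gene. In the DNA replication list Cdc25a passed of 4, in the stellate and contractile list Cnn3 of 2, and in the lipid synthesis list Scd2 of 8. Gdf15, a stress hormone, stood at 1.03 (adjusted p = 0.313), Cdkn1a, the p53 target that arrests the cell cycle, at -0.05, and Adgre1, a macrophage surface protein, at -0.30, none past the test.

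A pair of secreted proteins varied widely among low-dose males. A2m, a protease inhibitor, was at 0 counts in males 1 and 4 and between 173 and 1231 normalized counts in the other 5, against 491 to 1728 in vehicle livers (log2 fold change -1.06, adjusted p = 0.69). All 7 high-dose livers were at 0. A2m has close relatives whose reads the counting may have exchanged with it. Lcn2, an iron-scavenging acute phase protein, ran from 1.89 in male 10 to 1113 in male 4, against 31.4 to 149 in vehicle livers (1.598, adjusted p = 0.268).

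Low-dose males 4 and 7, picked after the values were seen, carried many of the calls. Without both males 220 genes were called, 208 higher and 12 lower, of which 218 were among the 704. Of the 13 named genes Glul (-1.38, adjusted p = 4.09e-06) and Rgs16 (-3.03, adjusted p = 0.051) were then still called. Without male 4 alone 6 of the 13 were called, and without male 7 alone 5. Of the 11 not called without both, Ehd4 passed the adjusted p at 0.77 and the rest did not. Over the 30 alternatives the call was lost in 0 for Glul, 1 for Gstm3l, 2 for Rgs16, 5 each for Cyp2c24 and P2rx5, 6 for Akr7a3 and 8 for Map3k6. It was lost in 9 each for Psat1 and Ccl2, 12 each for Ehd4 and Unc5b, 15 for Tex36 and 20 for Ncs1. Library totals of males 4 and 7 were 35700618 and 39459216, within the range of the group, and their TMM factors, 1.04 each, were the highest of the 7 (0.842 to 1.04, against 0.718 to 0.858 in vehicle and 1.07 to 1.51 in high-dose livers). The part of RNA composition in these results was not tested.

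**Figure D3:**
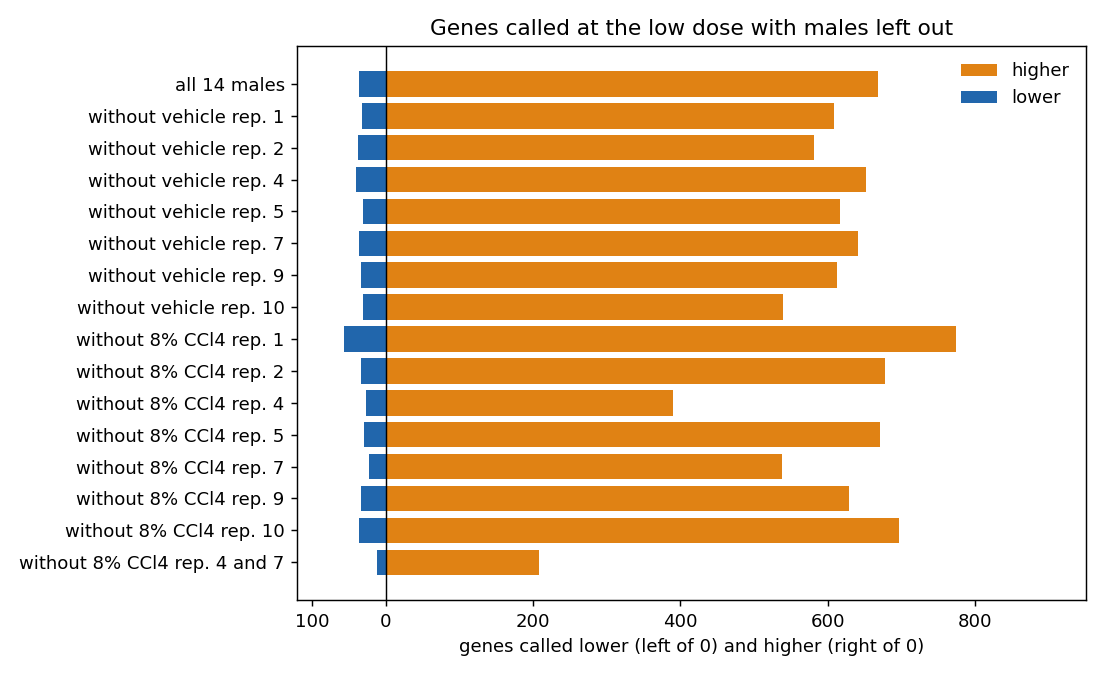
Number of genes called higher (right of 0) and lower (left of 0) at the low dose with all 14 males and with males left out. The count of genes called higher falls from 668 to 390 without low-dose replicate 4 and to 208 without replicates 4 and 7.

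The males of cohort A were also placed on genes chosen by the calls and levels of the other cohorts, in a fit that shared its estimate of spread with cohort A. In those cohorts the low dose was called higher for 3.49% of genes in B, 3.35% in C and 4.03% in D, and lower for 0.158%, 1.11% and 0.216%. Called higher in all 3 were 324 genes, of which 295 (91.0%) were called higher in cohort A as well, against the 3.52% of all genes above. These 295 were 44.2% of the 668. Called lower in all 3 were 6 genes, 5 of them called lower in cohort A. For the 150 of the 324 genes with a mean over 50 normalized counts in the 41 low-dose and vehicle males of cohorts B to D, the median log2 difference from the vehicle mean was computed in each male of cohort A. It lay between -0.28 and 0.22 in vehicle, between 1.09 and 2.38 in low-dose and between 1.97 and 3.07 in high-dose males. Every low-dose male was above every vehicle male. Males 4 and 7 of the low-dose group, at 2.38 and 2.24, lay within the high-dose range, and the other 5 lay between 1.09 and 1.69.

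**Figure D4:**
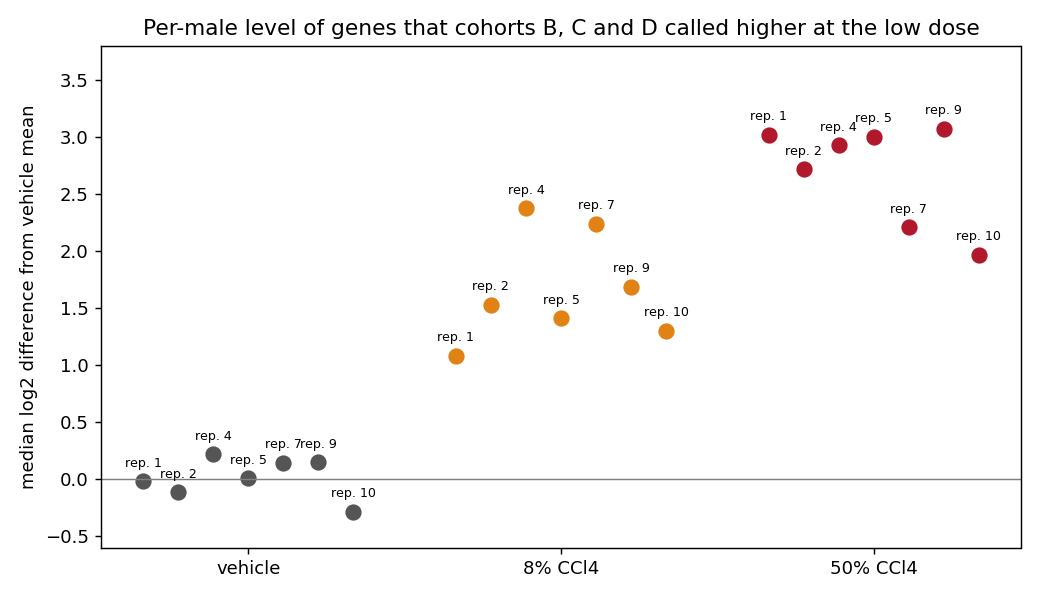
Median log2 difference from the cohort A vehicle mean over 150 genes that cohorts B, C and D called higher at the low dose; each point is 1 male of cohort A, labelled by replicate number. Low-dose males lie between 1.09 and 2.38, with replicates 4 and 7 at the top.

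The 668 genes that rose in cohort A had median log2 fold changes of 1.36, 1.42 and 1.56 in cohorts B, C and D, and 631 of them were positive in all 3 (94.5%, against 25.4% of all genes tested). The 36 genes that fell had medians of -0.90, -1.001 and -0.58, and 25 were negative in all 3 (69.4%, against 22.9% of all genes tested). All 13 named genes had the same sign in the 4 cohorts. A test of the difference itself, cohort A against the mean of cohorts B to D, gave 0 genes at an adjusted p under 0.1 with edgeR, 450 at an unadjusted p under 0.05 (2.37% of genes, where evenly spread p-values would give 5%), and 8 genes at an adjusted p under 0.1 with DESeq2. For the named genes the approximate 95% intervals of that difference all held 0, and were wide for P2rx5 (-0.96 to 3.28) and narrow for Ehd4 (-0.23 to 0.61).

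**Figure D5:**
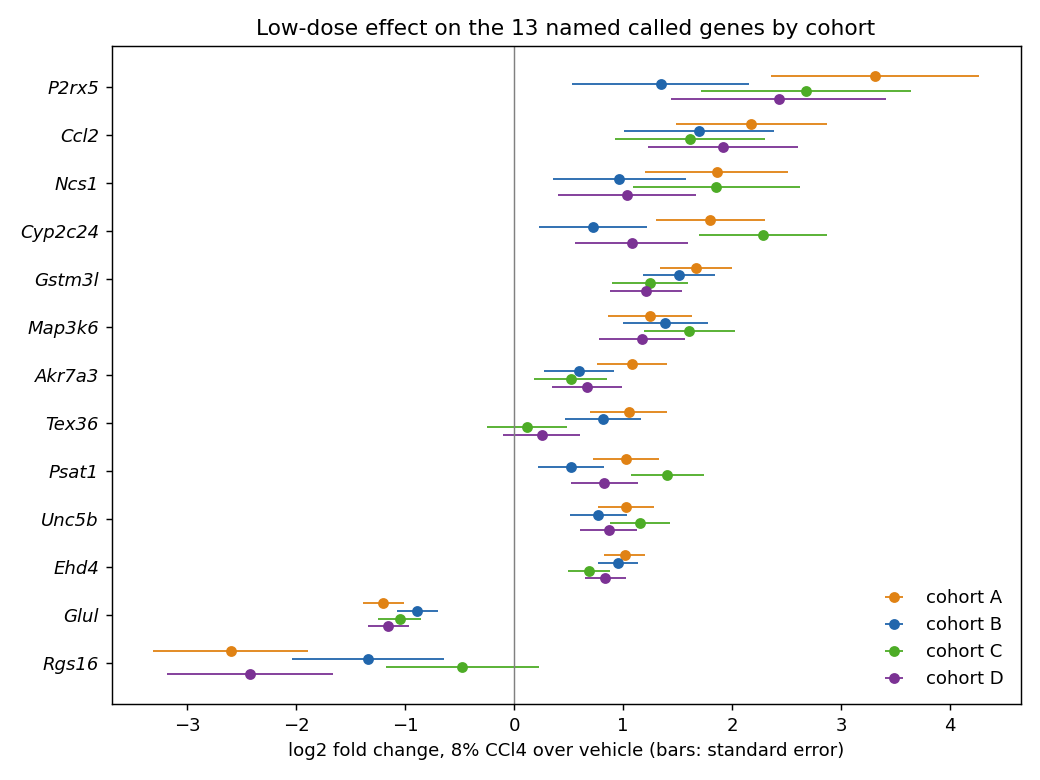
Log2 fold change of 8% CCl4 over vehicle (x axis) for the 13 called genes with a symbol in cohorts A to D; bars are standard errors. Glul lies between -1.20 and -0.89 in the 4 cohorts, and Rgs16 spreads from -2.60 to -0.48.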

How the data were processed

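Stranded mRNA libraries of total liver RNA were sequenced as read pairs. The deposited tables hold estimated counts per gene, which the authors made with Salmon 0.14.0 against Ensembl rat transcripts, summed per gene with tximport in R 3.5.0 and gave as whole numbers. The deposited average transcript lengths, in bases, were used here only as offsets in an alternative. A gene's counts therefore carry a share of ambiguous reads. Kidney tables were not used. Genes whose counts summed to more than 10 in any of the 12 groups were tested with edgeR 4.0.16 (TMM, quasi-likelihood, 1 fit of 83 livers) in R 4.3.3. DESeq2 1.42.0 was an alternative. On simulated data for the low dose in cohort A edgeR recovered 189 of 200 changes of 1.5 log2 with 16 other calls. The changed genes had mean counts over 50 and rose and fell in equal number, and no outlying males or shared litters were simulated. These figures therefore do not cover genes at low counts or calls that rest on single males. Named genes were called members of the gene lists, a set of anchor genes whatever they did (Cdkn1a, Gdf15, Cyp1a1, A2m, Lcn2 and Adgre1 among them), and the 10 largest rises and falls among called genes without overlap and with a mean over 50 normalized counts. Rgs16, Unc5b, Ehd4, Map3k6, P2rx5, Tex36 and Ncs1, called genes outside the lists, and genes that passed the adjusted p alone, as well as Gpx2, Il33, Slc1a2, Rhbg, Rnf43, Cyp1a2 and Sgo2, uncalled list members, were named after their values were seen. Alternatives changed the normalization, filter, thresholds, tool, blocks and animals. Members and lists were chosen with earlier results of these data known. Same-numbered males shared a necropsy date in the study's scheme (residual correlations 0.04 to 0.23 over 7 pairs), and 4 of these pairs and 1 other pair shared a litter. Each male is a separate animal. A zero count allows up to 3 counts, counting error only.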

Additional observations from a re-analysis of the deposited data

Results flagged for a closer look

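Among 54 named genes in the 2 groups of 7 males (108 groups), 9 had a male whose log2 value stood apart from the other 6 by Dixon's test, where chance flags about 1 in 20. In low-dose male 4 Glul was highest at 11180 normalized counts (next 6657), Ctsd highest at 21583 (next 12868), Lgmn highest at 7113 (next 4044), Slc26a6, an anion exchanger, highest at 221 (next 173), and Slc19a2 lowest at 1853 (next 2524). Without this male the log2 fold change of Glul was -1.39. In low-dose male 7 Ccl2 was highest at 273 (next 68.6). In vehicle male 10 Map3k6 was lowest at 13.6 (next 43.7) and Srd5a3 lowest at 117 (next 158). In vehicle male 7 Zfp2, a zinc finger gene, was lowest at 147 (next 232).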

How the results depend on the processing

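Against 704 genes called, 667 were called with other size factors, 695 with DESeq2 and 704 with transcript length offsets, of which 667, 649 and 687 were among the 704. At an adjusted p under 0.05, 557 were called (22 lower). With no fold threshold 1193 were called (1057 higher, 136 lower), and with only the 14 males in the fit 58 were called lower. Leaving out 1 male at a time gave 417 to 831 called, 390 to 774 higher and 23 to 57 lower. Without low-dose male 4 it was 417, without male 7 23 were lower, and without male 1 57 were lower. Without all livers of necropsy date 2, which in cohort A were males 4 and 5 of each dose group, 313 were called (299 higher, 14 lower). Without low-dose males 4 and 7, an alternative chosen after seeing the data, 220 were called (208 higher, 12 lower). The difference between cohort A and the others gave 8 genes with DESeq2 and 0 with edgeR. The cause of these changes was not tested. With the replicate number as a block, 683 genes were called (632 higher, 51 lower), 588 of them among the 704, and of the named genes Ncs1, Tex36 and Unc5b lost their call. With litter as a block 680 were called (626 higher, 54 lower), 503 of them among the 704. None of the 13 named genes called changed sign, but uncalled ones did, such as Gpx2 (-0.25 to 2.33), Cdkn1a (-0.21 to 0.21), Rhbg (-0.20 to 0.24), Slc1a2 (-0.26 to 0.39) and Tat (-0.61 to 0.04). Fold changes of the 110 genes with at most 3 counts in every vehicle library are limited by depth.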

Other observations

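The largest changes among genes without a symbol can be given by identifier only. ENSRNOG00000004725.6 fell from 433 ± 93.1 to 54.6 ± 14.2 normalized counts (SD, n = 7), without overlap (log2 fold change -2.98, edgeR adjusted p = 3.29e-07), and by -2.52, -3.62 and -2.79 in cohorts B, C and D. ENSRNOG00000025676.7 fell from 95.5 ± 68.9 to 10.996 ± 5.61 (-3.13, adjusted p = 3.41e-06) and stood at -1.21, -1.04 and -0.32 in those cohorts, where it was not called. The difference between cohort A and the others was -2.27, which did not pass the adjusted p. Among the rises, no vehicle library held more than 1 count of ENSRNOG00000005954.3 or ENSRNOG00000009528.4, whose low-dose means were 192 ± 136 and 162 ± 138. Against a floor of 3 counts per library these were at least 48.9-fold and at least 41.1-fold higher. Of the 10 largest rises at a mean over 50 normalized counts without overlap, 0 had a symbol, and of the 9 such falls Glul did.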
